A study of Mus musculus with 8 samples.

Results

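Oxidative phosphorylation subunits are the nuclear-encoded proteins of the mitochondrial respiratory chain and of ATP synthase. The members were taken by symbol alone: every gene whose symbol begins with Nduf, Uqcr, Atp5 or Cox followed by 4 to 8, together with Sdha to Sdhd and Cyc1. This gave 79 genes of the 9930 named genes on the array, carried by 109 probes. Of these 79 genes, 76 were measured often enough to be tested (3 or more values in both groups), among 14015 features: 36 of complex I, 4 of complex II, 7 of complex III, 15 of complex IV and 14 of complex V. The 36 of complex I include 5 Ndufaf genes, which are assembly factors and not subunits. Uqcrh, Cox6a2 and Atp5e fell below that filter. Cycs and the genes encoded in mitochondrial DNA were not analysed here.

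The study set HM-1 against R1, mouse embryonic stem cell lines of which HM-1 is known as Hprt-deficient. Each of 8 cDNA microarrays held labelled RNA of both lines, 4 arrays from untreated cells and 4 from cells given nocodazole, which depolymerises microtubules and arrests cells in mitosis; the labels give no dose, time or age of the cultures. Per the labels, HM-1 carried the dye Cy5 on untreated replicates 1 and 2 and nocodazole replicates 1 to 3, called Cy5 arrays here, and Cy3 on untreated replicates 3 and 4 and nocodazole replicate 4, called Cy3 arrays. The labels do not call the replicates separate cultures. The p-values therefore speak of the variation among these 8 hybridisations, part or all of which may be technical. The label protocol also describes organs and a reference pooled from control animals, which the channel labels of these arrays do not mention. A ratio gives no level, so the identity of the cells could not be checked from marker levels. Of the embryonic stem cell markers, 12 were tested and 10 had a positive ratio in untreated cells, with the sign as deposited, against 48.9% of all features. The sign of a ratio between the lines does not tell what the cells are.

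All values are log2 ratios between the lines, with the median of each array set to 0 and the sign of the deposited table. The labels do not say whether these ratios were turned to one line or left as one dye over the other. If they were turned, the mean of the arrays is the difference between the lines and the gap between Cy5 and Cy3 arrays is a dye effect. If they were left as Cy5 over Cy3, that gap comes from the lines, and the log2 ratio between them is the gap divided by 2. The 2 readings cannot be told apart from the labels, so medians and counts over the members are given under both and no line is called higher. Line ratios of other gene lists, and of single genes unless said otherwise, are given with the deposited sign only. Array totals lay between 17928 and 19445 values, and small whole-number ratios (numerator and denominator up to 10, within 0.0015 on the log2 scale), as intensities of a few units give, made up 11.0% to 19.3% of them. For this match an offset was first taken off each array, from -0.24 to 0.38. It was set by assuming that values above 10 in absolute log2 stand for a ratio of 100000, so the deposited values themselves need not equal such ratios. With the same set of ratios shifted on the log2 scale, 3.94% to 4.85% of the values still matched, so some matches are coincidental. Nocodazole replicate 3 had the widest spread (SD 1.23, against 0.74 to 0.87 on the other arrays).

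Complex I oxidises NADH, complex II oxidises succinate, and both pass electrons through coenzyme Q to complex III, which hands them by cytochrome c to complex IV, where oxygen is reduced. Complexes I, III and IV pump protons across the inner membrane, and complex V, the ATP synthase, lets them flow back to make ATP. Embryonic stem cells in the naive state are known to use both this pathway and glycolysis. Many of the nuclear genes of the chain carry binding sites for NRF-1 and for ETS factors such as GABP (also called NRF-2) in their promoters.

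Promoters of 4 members whose ratios separated by the dye label, 1 each of complexes I, II, IV and V, are shown as RefSeq windows of build GRCm38.p6, 250 bases before to 50 after the annotated start, 5′ to 3′. They were chosen to show the shared motifs beside the members the values turn on. Capitals mark matches to GCNTGCGC or its reverse GCGCANGC, the core of the NRF-1 site, and to CCGGAAG or its reverse CTTCCGG, the core of ETS sites, on either strand; matches do not overlap in these windows.
Ndufa5 (chr6:24527477-24527776, minus strand): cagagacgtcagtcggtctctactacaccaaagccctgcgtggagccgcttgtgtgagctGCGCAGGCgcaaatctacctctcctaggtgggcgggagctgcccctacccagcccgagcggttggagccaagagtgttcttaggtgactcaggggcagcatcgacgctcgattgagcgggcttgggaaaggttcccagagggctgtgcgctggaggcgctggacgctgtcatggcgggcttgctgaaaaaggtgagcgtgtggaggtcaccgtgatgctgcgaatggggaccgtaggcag
Sdhd (chr9:50603800-50604099, minus strand): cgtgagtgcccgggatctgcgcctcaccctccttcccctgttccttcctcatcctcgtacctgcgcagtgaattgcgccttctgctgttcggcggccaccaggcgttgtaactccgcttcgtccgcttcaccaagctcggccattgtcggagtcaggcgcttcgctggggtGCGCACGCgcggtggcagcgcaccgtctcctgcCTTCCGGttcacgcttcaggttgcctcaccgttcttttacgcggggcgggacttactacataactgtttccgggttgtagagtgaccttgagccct
Cox6b1 (chr7:30626065-30626364, minus strand): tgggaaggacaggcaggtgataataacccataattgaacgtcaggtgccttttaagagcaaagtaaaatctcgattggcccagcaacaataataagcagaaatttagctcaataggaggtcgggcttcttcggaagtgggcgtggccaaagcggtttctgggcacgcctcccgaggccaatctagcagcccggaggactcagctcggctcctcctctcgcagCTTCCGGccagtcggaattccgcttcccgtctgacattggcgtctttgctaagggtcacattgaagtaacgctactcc
Atp5l (chr9:44920693-44920992, minus strand): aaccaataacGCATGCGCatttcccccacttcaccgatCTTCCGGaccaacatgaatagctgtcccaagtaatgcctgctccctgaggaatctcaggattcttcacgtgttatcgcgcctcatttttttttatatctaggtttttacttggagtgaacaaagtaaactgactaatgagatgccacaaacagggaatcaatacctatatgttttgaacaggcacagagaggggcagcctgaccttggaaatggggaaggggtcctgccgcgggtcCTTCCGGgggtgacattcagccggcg
Sdhd and Atp5l held both motifs, Ndufa5 the NRF-1 core in 1 of its 2 RefSeq windows and Cox6b1 an ETS core. Of 65 members matched to a window, 21 held the NRF-1 core (32.3%) and 17 the ETS core (26.2%), against 14.8% and 12.9% of 17492 protein-coding genes. Among members whose arrays separated by dye label, 5 of 16 with a window held the NRF-1 core, and among those whose arrays overlapped 13 of 37 did. A match is a string of letters in the window and was not tied to the array values.

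On the Cy5 arrays the members as a group lay at or above the array median, and on the Cy3 arrays they lay below it. The median over the 76 members was 0.06 (untreated replicate 1), -0.0025 (untreated replicate 2), 0.10, 0.06 and 0.12 (nocodazole replicates 1 to 3) with HM-1 in Cy5. With HM-1 in Cy3 it was -0.21 and -0.19 in the untreated pair and -0.07 in the treated array. The groups by dye label did not overlap, whereas the untreated and nocodazole groups did. Over all 14015 features the same medians ran from -0.01 to 0.02.

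**Figure D1:**
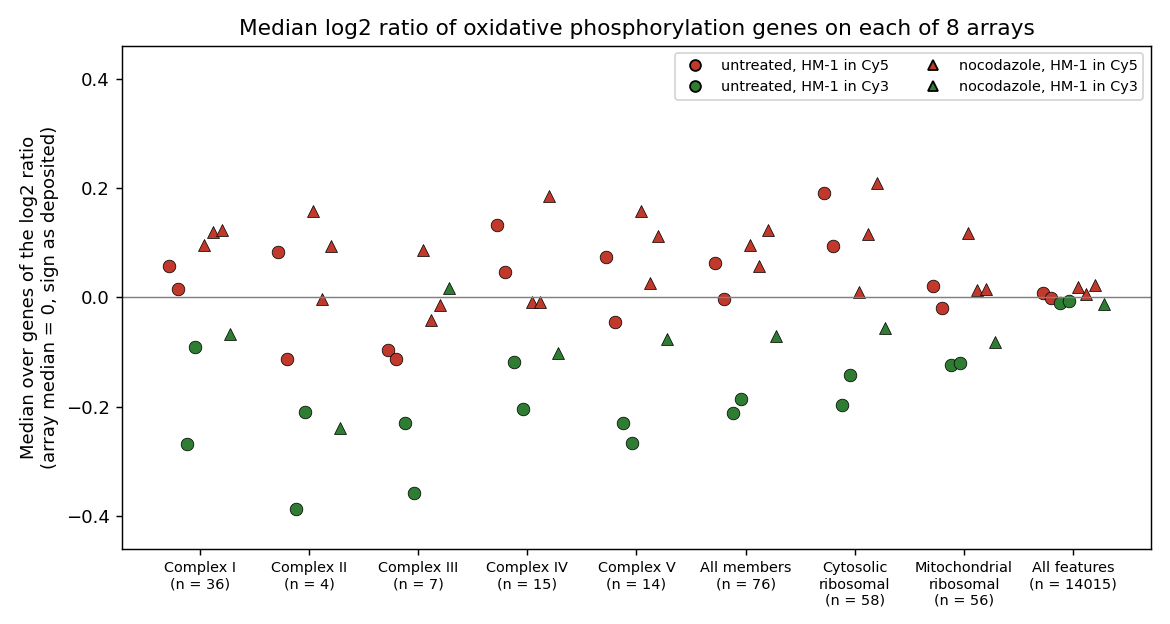
Each point is the median log2 ratio (array median 0, sign as deposited) over the tested genes of a set on 1 array, for complexes I to V, all 76 members, the cytosolic and mitochondrial ribosomal proteins and all features; red marks HM-1 in Cy5, green HM-1 in Cy3, circles untreated and triangles nocodazole. For all members the red points run from -0.0025 to 0.12 and the green from -0.21 to -0.07, while all features stay near 0.

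The gap had the same direction in each condition, though with nocodazole it rests on 1 Cy3 array. In untreated cells the mean of the Cy5 arrays exceeded that of the Cy3 arrays for 55 of 76 members, with a median gap of 0.27. With nocodazole, the mean of 3 Cy5 arrays exceeded the single Cy3 array for 54 of 75 members, with a median gap of 0.17. The matching shares over all features were not computed. In limma, the part of the ratio that follows the dye label had a median of 0.22 over the members and -0.02 over all features. Its estimate was positive for 54 of the 76, against 48.2% of all features. Both values differed with the range across the arrays. At a range under 1, the median was 0.25 over 44 members (84.1% positive) and 0.09 over all such features (67.3%). At a wider range it was 0.03 over 32 members (53.1%) and -0.23 over all such features (35.2%). No member passed the threshold (smallest adjusted p = 0.433), nor did any of the 14015 features (background 0%). At an unadjusted p under 0.05, 14 members were positive and 0 negative, against 3.5% of all features positive and 5.82% negative. These 14 estimates lay between 0.37 and 0.65 on the log2 scale, a 1.29-fold to 1.57-fold gap, with adjusted p between 0.433 and 0.533 in limma. The count of 14 became 8 of 68 members without untreated replicate 1 (2.46% of all features positive in that fit). It became 9 of 67 without untreated replicate 4 (2.25%) and 9 of 70 without nocodazole replicate 4 (3.16%), and 0 members were negative in these fits. With the replicate number as a block, 3 members were positive and 3 negative (3.23% and 11.1% of all features). The dye label differs between the groups in replicate 3 alone. In that fit the gap therefore rests on the 2 arrays of replicate 3, set against the change in the other replicates. One of them, nocodazole replicate 3, had the widest spread, so this fit does not check the gap over all 8 arrays. Without centring of the arrays the median was 0.34 over the members and 0.12 over all features.

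A plainer count needs no test. Of the 65 members with a value on all 8 arrays, 21 had every Cy5 array above every Cy3 array and 0 the opposite. Over all 11681 features with 8 values, 7.74% separated in the first direction and 3.94% in the second. The 21 were Ndufa2, Ndufa5, Ndufa7, Ndufa13, Ndufb3, Ndufb4, Ndufb9, Ndufb11, Ndufs4, Sdhc, Sdhd, Uqcrfs1, Cox4i1, Cox5b, Cox6b1, Cox6b2, Atp5a1, Atp5j2, Atp5l, Atp5md and Atp5pb. They came from all 5 complexes, and their estimates ran from 0.19 to 0.65 with a median of 0.38. In untreated cells alone, 34 of 66 members had both Cy5 arrays above both Cy3 arrays and 6 the reverse, against 26.8% and 21.1% of all features. The design text gives dye swaps of 50%, where the channel labels give 37.5% and thus 1 swapped array fewer. With nocodazole replicate 3 given the opposite dye, 3 members separated, against 3.80% of all features.

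**Figure D2:**
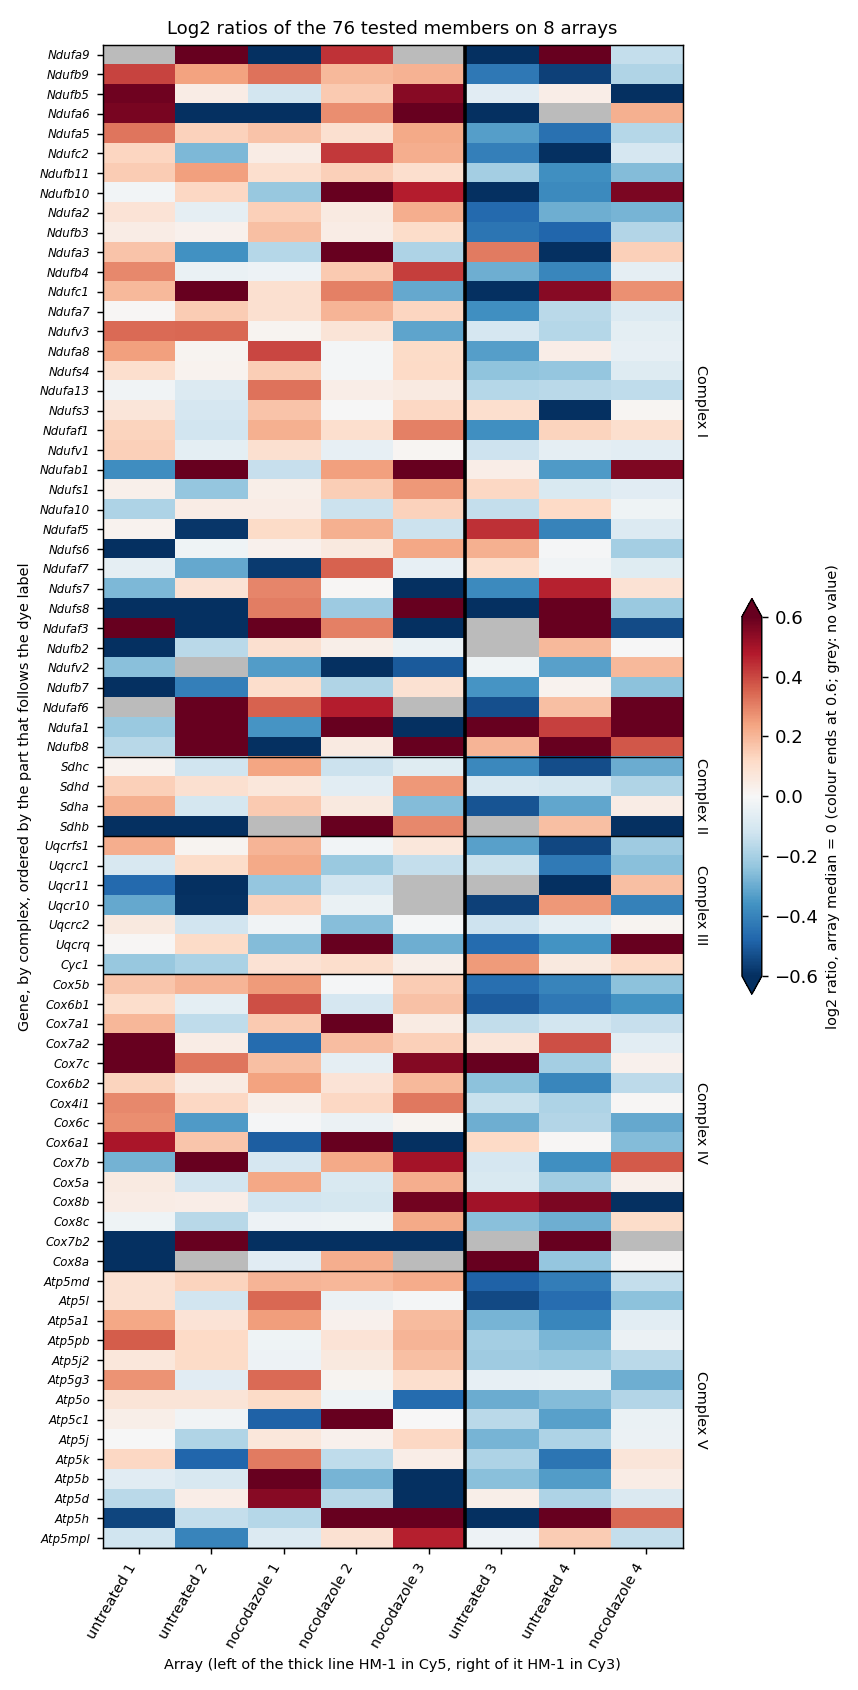
Colour gives the log2 ratio (array median 0; the scale ends at 0.6, grey marks no value) of each of the 76 tested members, in rows by complex, on the 8 arrays, in columns, with the 5 Cy5 arrays left of the thick line and the 3 Cy3 arrays right of it. The upper rows of each complex are mostly red on the left and blue on the right, as in Ndufb9 and Atp5md, and the genes with dark cells of both colours, such as Ndufa6, show no such order.

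Per-array values are given from here on in 1 order: untreated replicates 1 and 2 and nocodazole replicates 1, 2 and 3 for the Cy5 arrays, then untreated replicates 3 and 4 and nocodazole replicate 4 for the Cy3 arrays. A missing value is left out. Estimates with an SE are the fitted gap of the Cy5 arrays over the Cy3 arrays unless another comparison is named.

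The separated members of complex I were all accessory subunits. Of 22 accessory subunits with 8 values, 9 separated by dye label, and of 5 core subunits 0 did, against 7.74% of all features. This split by role was made after the values were seen and was not tested. The median estimate was 0.32 over 25 accessory subunits and -0.07 over 6 core subunits, which carry the flavin and iron-sulphur centres or their scaffold. Some core subunits were noisy: Ndufs8 had a range of 2.3, and Ndufv2 had 7 values. The 2 probes of Ndufs7 disagreed, with gaps of -0.58 and 0.27. A wide range itself makes separation less likely. Ndufb9, an accessory subunit of the membrane arm, had the largest estimate of the 21 separated members. Its values were 0.41, 0.24, 0.33, 0.20 and 0.21 on the Cy5 arrays and -0.43, -0.56 and -0.18 on the Cy3 arrays. All 5 Cy5 arrays were positive and all 3 Cy3 arrays negative, with an estimate of 0.65 (SE 0.15, limma adjusted p = 0.433).

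Ndufa5, an accessory subunit of the matrix arm, was at 0.32, 0.14, 0.17, 0.10 and 0.23 on the Cy5 arrays and -0.33, -0.45 and -0.17 on the Cy3 arrays. Again the signs split without exception, with an estimate of 0.50 (SE 0.14, limma adjusted p = 0.45), and its 2 probes had gaps of 0.49 and 0.53. Ndufb3 and Ndufb11, further membrane-arm subunits, had estimates of 0.41 and 0.44. The core subunit Ndufv1, which binds NADH, had the smallest range of all members, 0.27 across the 8 arrays, with an estimate of 0.11 (SE 0.13, limma adjusted p = 0.807). Ndufs1, another iron-sulphur core subunit, ranged from -0.23 to 0.26, and its groups overlapped. Of the Ndufaf assembly factors, which help to build complex I and stay outside the finished enzyme, 0 of 3 with 8 values separated and 1 of 5 had a positive estimate.

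Ndufc2, a membrane-arm subunit, had the smallest p of complex I both in untreated cells and for the change with nocodazole. Its values were 0.13, -0.27, 0.04, 0.42 and 0.22 on the Cy5 arrays and -0.41, -0.97 and -0.10 on the Cy3 arrays. The untreated mean was -0.38 ± 0.45 (SD, n = 4) and the nocodazole mean 0.15 ± 0.23 (SD, n = 4), and the spread in untreated cells exceeded its mean. The 2 probes of the gene disagreed: the gap by dye label was 1.79 on one and -0.36 on the other, and on the probe with 8 values alone the untreated estimate turned from -0.38 to 0.09. Ndufb10 was at -0.02, 0.12, -0.23, 1.60 and 0.47 on the Cy5 arrays and -0.90, -0.38 and 0.56 on the Cy3 arrays. Its nocodazole estimate was 0.50 (SE 0.31, limma adjusted p = 0.999), and 5 of the values of its 2 probes matched small whole-number ratios after the array offset. On the probe with 8 values alone the estimate was -0.03.

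Complex II, succinate dehydrogenase, is the only complex that also belongs to the citrate cycle. Its membrane anchors Sdhc and Sdhd separated by dye label. Of the catalytic subunits, Sdha did not, and Sdhb, with 6 values, could not be scored. Sdhc was at 0.02, -0.12, 0.24, -0.13 and -0.07 on the Cy5 arrays and -0.39, -0.53 and -0.30 on the Cy3 arrays, with an estimate of 0.37 (SE 0.15, limma adjusted p = 0.533). Sdhd was at 0.14, 0.09, 0.07, -0.06 and 0.26 on the Cy5 arrays and -0.10, -0.11 and -0.18 on the Cy3 arrays, with an estimate of 0.24 (SE 0.13, limma adjusted p = 0.608). Every Cy3 array of these 2 genes was negative, while the Cy5 arrays held both signs. Sdha, the flavoprotein that oxidises succinate, was at 0.21, -0.11, 0.16, 0.06 and -0.26 on the Cy5 arrays and -0.52, -0.31 and 0.04 on the Cy3 arrays; its Cy3 value under nocodazole lay among the Cy5 values. Sdhb, the iron-sulphur subunit, had 6 values from -3.24 to 1.14, too wide to order the arrays. Sdhc also had a negative ratio over both conditions, at -0.21 (SE 0.07, limma adjusted p = 0.897), 1 of 2 members at an unadjusted p under 0.05 in that comparison (background 2.49% negative and 3.04% positive).

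In complex III the redox subunits had estimates of opposite sign. Uqcrfs1, the Rieske iron-sulphur protein, was at 0.22, 0.02, 0.21, -0.02 and 0.07 on the Cy5 arrays and -0.33, -0.55 and -0.21 on the Cy3 arrays. It separated by dye label, with an estimate of 0.44 (SE 0.15, limma adjusted p = 0.49). Cyc1, the cytochrome c1 subunit, was at -0.23, -0.19, 0.09, 0.10 and 0.03 on the Cy5 arrays and 0.26, 0.06 and 0.12 on the Cy3 arrays, with an estimate of -0.23 (SE 0.14, limma adjusted p = 0.636). This negative value came from 1 of its 2 probes, whose gap was -0.68, while the other had a gap of 0.31. The core proteins Uqcrc1 and Uqcrc2, which face the matrix, had estimates of 0.25 and -0.01 with overlapping arrays. The small subunit Uqcrq was at 0.008, 0.11, -0.26, 0.92 and -0.29 on the Cy5 arrays and -0.46, -0.36 and 1.07 on the Cy3 arrays, so nocodazole replicates 2 and 4 stood above all others. Uqcrq has 3 probes; the third, with values on the nocodazole arrays only, reached 3.60 on replicate 4.

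**Figure D3:**
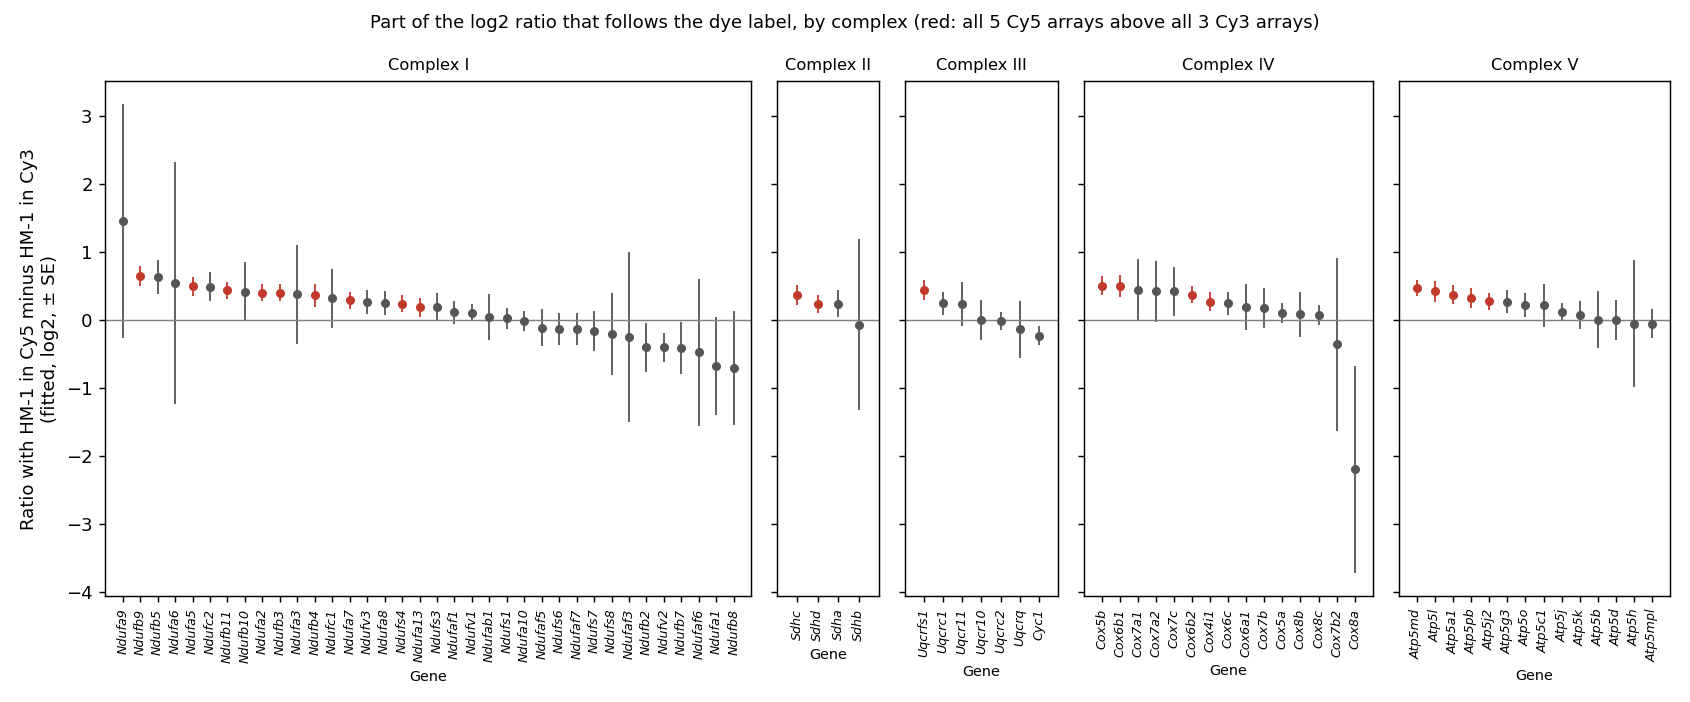
Each point is the fitted log2 ratio with HM-1 in Cy5 minus that with HM-1 in Cy3 for 1 gene, with its SE, in a panel for each complex; red marks the 21 genes whose 5 Cy5 arrays all lie above their 3 Cy3 arrays. The red points lie between 0.19 and 0.65 with short error bars, and the genes furthest from 0, Ndufa9 and Cox8a, have SEs of 1.71 and 1.52.

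Complex IV, cytochrome c oxidase, takes its catalytic subunits from mitochondrial DNA, and the nuclear subunits measured here surround them. Of 10 broadly expressed isoforms tested, 9 had a positive estimate, against 48.2% of all features. Of 9 with 8 values 3 separated, against 7.74% of all features. Cox5b, a zinc-binding subunit, was at 0.17, 0.20, 0.25, -0.008 and 0.15 on the Cy5 arrays and -0.45, -0.40 and -0.25 on the Cy3 arrays, with an estimate of 0.51 (SE 0.14, limma adjusted p = 0.433). Cox6b1, a subunit at the face toward the intermembrane space, was at 0.11, -0.06, 0.39, -0.10 and 0.18 on the Cy5 arrays and -0.50, -0.43 and -0.36 on the Cy3 arrays, with an estimate of 0.50 (SE 0.16, limma adjusted p = 0.481); its 2 probes had gaps of 0.42 and 0.65. All Cy3 arrays of both genes were negative. Cox4i1, on 4 probes the most often measured member, separated too, and all 4 probes had a positive gap, from 0.12 to 0.48.

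Cox6b2, the testis isoform of the same subunit as Cox6b1, was at 0.13, 0.05, 0.24, 0.08 and 0.20 on the Cy5 arrays and -0.25, -0.39 and -0.16 on the Cy3 arrays. It followed Cox6b1 array by array in sign except on untreated replicate 2 and nocodazole replicate 2, with an estimate of 0.38 (SE 0.13, limma adjusted p = 0.49); whether its cDNA probe also binds Cox6b1 was not tested. Other pairs of isoforms were less alike in their values, which was not tested. Cox7a1, the heart and muscle isoform, was at 0.20, -0.15, 0.16, 1.83 and 0.05 on the Cy5 arrays and -0.15, -0.11 and -0.14 on the Cy3 arrays, and Cox7a2, the widespread one, at 1.87, 0.04, -0.46, 0.19 and 0.14 on the Cy5 arrays and 0.07, 0.39 and -0.07 on the Cy3 arrays. A single array set each of them apart, nocodazole replicate 2 for Cox7a1 and untreated replicate 1 for Cox7a2. On that array 1 of the 2 probes of Cox7a1 read 3.52 and the other 0.14. Cox7b was at -0.28, 0.67, -0.10, 0.23 and 0.50 on the Cy5 arrays and -0.10, -0.37 and 0.37 on the Cy3 arrays. Its testis form Cox7b2 had 6 values, -0.65, 1.47, -1.76, -1.11 and -3.31 on the Cy5 arrays and 0.77 on the Cy3 arrays, all 3 with nocodazole negative. Its change with nocodazole was -2.47 (SE 1.08, limma adjusted p = 0.996), over 3 arrays each.

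The subunit 8 isoforms showed no common order. Cox8a, the widespread form, ranged from -2.80 to 3.52 over 6 arrays. Cox8b, the heart and muscle form, was at 0.05, 0.04, -0.12, -0.10 and 0.58 on the Cy5 arrays and 0.51, 0.57 and -0.74 on the Cy3 arrays, positive on all 4 untreated arrays. Cox8c, the testis form, was at -0.03, -0.17, -0.03, -0.03 and 0.23 on the Cy5 arrays and -0.25, -0.29 and 0.11 on the Cy3 arrays, negative on all 4 untreated arrays. Cox7c, a small membrane subunit, was the only member with a positive untreated ratio at an unadjusted p under 0.05 (background 3.27% positive). Its values were 1.40, 0.32, 0.18, -0.05 and 0.55 on the Cy5 arrays and 0.74, -0.20 and 0.03 on the Cy3 arrays, the untreated mean was 0.56 ± 0.68 (SD, n = 4) and the estimate 0.56 (SE 0.23, limma adjusted p = 0.784). Untreated replicate 1 was highest and replicate 4 below 0. Cox6c was at 0.28, -0.34, -0.009, -0.03 and 0.02 on the Cy5 arrays and -0.29, -0.17 and -0.31 on the Cy3 arrays; its nocodazole estimate was -0.14 (SE 0.12, limma adjusted p = 0.999).

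In complex V, 5 of 14 members separated by dye label, against 7.74% of all features. They were 3 of 6 in its membrane part, 1 of 4 in the peripheral stalk and 1 of 4 in the catalytic head and central stalk. These counts are too small to set the parts apart, and the split was not tested. Atp5md, a small protein that joins ATP synthase dimers, was at 0.09, 0.13, 0.20, 0.20 and 0.22 on the Cy5 arrays and -0.49, -0.41 and -0.14 on the Cy3 arrays, with an estimate of 0.47 (SE 0.12, limma adjusted p = 0.433). Atp5l, subunit g, was at 0.09, -0.12, 0.34, -0.04 and -0.01 on the Cy5 arrays and -0.54, -0.46 and -0.24 on the Cy3 arrays, with an estimate of 0.43 (SE 0.16, limma adjusted p = 0.503), and its 2 probes had gaps of 0.45 and 0.49. Atp5md was positive on all Cy5 arrays, and Atp5l was positive on 2 of them. Atp5a1, the alpha subunit of the catalytic head, separated on the mean of 3 probes, each with a positive gap, from 0.35 to 0.48. Its partner Atp5b, the catalytic beta subunit, ranged from -1.11 on nocodazole replicate 3 to 0.75 on nocodazole replicate 1.

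Atp5o, the stalk protein that confers oligomycin sensitivity, was at 0.08, 0.08, 0.11, -0.02 and -0.46 on the Cy5 arrays and -0.30, -0.26 and -0.17 on the Cy3 arrays. It was short of separation by nocodazole replicate 3 alone. Atp5k, subunit e, was at 0.12, -0.47, 0.31, -0.15 and 0.04 on the Cy5 arrays and -0.18, -0.44 and 0.07 on the Cy3 arrays. Its groups overlapped: nocodazole replicate 4 lay above 3 of the Cy5 arrays. Atp5g3, a gene of the proton-carrying c ring, ranged from -0.29 to 0.34. Atp5h, subunit d, ranged from -0.999 to 2.92, and 8 of the values of its 3 probes matched small whole-number ratios after the array offset.

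The separated members all had a small range across the arrays. The range across arrays had a median of 0.86 over the members and 1.27 over all features. Of the 42 members with 8 values and a range under 1, 21 separated in the Cy5 direction, and of the 23 with a wider range 0 did. Over all features with a range under 1, 13% separated in that direction and 1.48% in the other. Because a wide range itself makes separation less likely, this split describes and does not test. Of 16 members with at least 2 probes measured on all arrays, 10 had a positive gap by dye label on every probe, 0 a negative one and 6 mixed signs. The matching share over all genes with several probes was not computed, so this count describes the members only.

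**Figure D4:**
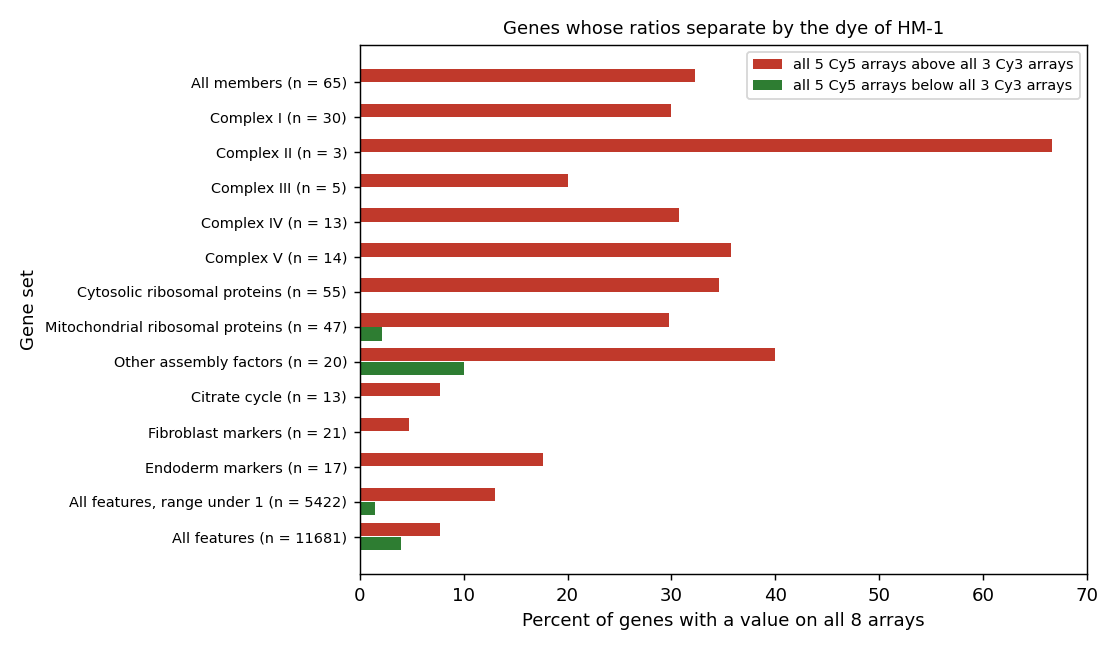
Bars give the percent of genes with a value on all 8 arrays whose 5 Cy5 arrays all lie above (red) or below (green) their 3 Cy3 arrays, for the members, each complex, other gene lists and all features. The members reach 32.3% above and 0% below, against 7.74% and 3.94% of all features; complexes II and III rest on 3 and 5 genes.

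Ribosomal protein genes shared the order of the arrays. Of 55 cytosolic ribosomal protein genes with 8 values, 19 had every Cy5 array above every Cy3 array (34.5%), and of 47 mitochondrial ribosomal protein genes 14 did (29.8%). Their median estimates were 0.22 and 0.11. The order was thus not particular to oxidative phosphorylation. Among other genes of the pathway, 8 of 20 assembly factors outside the member list separated in the Cy5 direction and 2 in the other. Over all features these shares were 7.74% and 3.94%. At an unadjusted p under 0.05, 5 of 25 assembly factors were positive and 3 negative (background 3.5% and 5.82%), and none passed the threshold. The positive ones included Coa3 (0.43, SE 0.14), which stabilises newly made Cox1, and Higd1a (0.45, SE 0.18), a partner of complex IV. The negative ones included Ttc19 (-1.98, SE 0.46), a complex III factor. The adjusted p of these 3 in limma were 0.49, 0.514 and 0.433.

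Enzymes of the citrate cycle and pyruvate dehydrogenase, which feed the chain, had a median gap by dye label near 0. Of 14 tested, 7 were positive and 7 negative, with a median estimate of -0.02, and 1 of 13 separated, against 7.74% of all features. Idh3b, a subunit of isocitrate dehydrogenase, was at 0.41 (SE 0.16, limma adjusted p = 0.514). Carriers and porins had a median of 0.14 over 7 genes, coenzyme Q synthesis -0.32 over 6 and biogenesis regulators -0.14 over 11. Of the 11 regulators, 4 had a positive estimate, up to 1.79, and 7 a negative one. At an unadjusted p under 0.05, 1 was positive and 1 negative (background 3.5% and 5.82%). The negative one was Nrf1, the factor that binds the NRF-1 site, at -1.13 (SE 0.27, limma adjusted p = 0.433). Of 9 regulators with 8 values, 2 separated in the Cy5 direction and 1 in the other, against 7.74% and 3.94% of all features. Of markers of other cells the culture could hold, 1 of 21 fibroblast and 3 of 17 endoderm genes separated, with median estimates of -0.10 and -0.05. The array medians of the fibroblast list ran from -0.53 to 0.02 on Cy5 arrays and from -0.15 to 0.01 on Cy3 arrays, those of the endoderm list from -0.65 to 0.59 and from -0.52 to -0.14. Their part in the members' values was not tested. In RNA from whole cultures, a smaller share of a cell type and less RNA per cell cannot be told apart.

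Read as deposited, the ratio between the lines in untreated cells was slightly below the array median for most members. The median over the members was -0.09, with 58 of 76 negative, against -0.0048 over all features. By share, 23.7% of the members were positive, against 48.9% of all features. No member passed the threshold in limma (smallest adjusted p = 0.758; background 0%). At an unadjusted p under 0.05, 6 members were negative (background 3.07%) and 1 positive: Atp5l, Ndufb3, Ndufb7, Ndufc2, Sdhc and Uqcr11 on the negative side and Cox7c on the positive. Values of 2 of them are given, chosen after they were seen. Uqcr11, a small complex III subunit, had the lowest estimate of these 7, -0.86 (SE 0.22, limma adjusted p = 0.758), from untreated values of -0.47, -0.62 and -1.37. Ndufb7, a membrane-arm subunit of complex I, had -1.72 on untreated replicate 1 and -0.41, -0.35 and 0.02 on replicates 2 to 4. By complex the medians were -0.08 for I, -0.22 for II, -0.16 for III, -0.05 for IV and -0.10 for V. Of the 66 members with 4 untreated values, 4 were negative on all of them (Atp5b, Atp5j, Cox8c and Ndufa13) and 3 positive on all (Cox6a1, Cox7a2 and Cox8b), so the sign of most members differed between replicates. The count of 6 negative members was between 1 and 4 when any 1 array other than nocodazole replicate 3 was left out, with 2.21% to 3.73% of all features negative in those fits, and 2 with no dye term (2.36%). With the replicate number as a block, 1 member was negative and 3 positive (3.42% and 4.55% of all features). Markers of other cells were also below the array median in untreated cells: the endoderm list had a median of -0.47, with 13 of 18 genes negative and 6 of them at an unadjusted p under 0.05, and the fibroblast list -0.12, with 15 of 26 negative. Over both conditions these medians were -0.45 and -0.10, with 7 of 18 and 4 of 26 genes negative at that p. No gene of either list passed the threshold in limma, and their part in the members' ratios was not tested.

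With nocodazole the fitted ratio between the lines, balanced over the dye labels, was near 0 for the members. The median of these estimates was -0.0084, with 37 positive and 39 negative, where 48.6% of all features were positive. On the single arrays the members did not lie at 0: their medians were 0.10, 0.06, 0.12 and -0.07 on nocodazole replicates 1 to 4. No member passed the threshold (smallest adjusted p = 0.999) and none had an unadjusted p under 0.05 (background 1.79% positive and 1.1% negative). Over both conditions the median was -0.04 and 56 of 76 members were negative. By share, 26.3% of the members were positive there, against 48.2% of all features. Sdhc and Uqcr11 were negative at an unadjusted p under 0.05 (background 2.49% negative), with a smallest adjusted p of 0.897 in limma. Without nocodazole replicate 2 the count of 2 was 0 (1.67% of all features negative), and without nocodazole replicate 1 it was 4 (4.43%). The change of the ratio between untreated and treated cells had a median of 0.11 over the members, against -0.0017 over all features. It was positive for 54 of 76 members, against 49.7% of all features. No member passed (smallest adjusted p = 0.996), and none had an unadjusted p under 0.05 (background 1.65% positive and 1.63% negative). Within the Cy5 arrays the median change was 0.06, with 45 of 76 members higher under nocodazole, and within the Cy3 arrays 0.11, with 49 of 75 higher on the single treated array. Treated and untreated cells never shared an array, so this is no effect of the drug within a line.

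With the Cy3 arrays turned in sign, as ratios of Cy5 over Cy3 would require, the difference between the lines takes over the gap by dye label. The median over the members was then 0.13 in untreated cells, 0.11 with nocodazole and 0.12 over both conditions, with 55, 56 and 58 of 76 members positive. Of all 14015 features, 7105, 7030 and 6661 were positive, in the same order. Over both conditions 14 members were positive at an unadjusted p under 0.05 and 0 negative (background 4.05% positive and 6.56% negative), and none passed the threshold (smallest adjusted p = 0.287). They are Ndufa2, Ndufa5, Ndufa7, Ndufb3, Ndufb9, Ndufb11, Sdhc, Uqcrfs1, Cox5b, Cox6b1, Cox6b2, Atp5a1, Atp5l and Atp5md, with estimates between 0.16 for Ndufa7 and 0.33 for Ndufb9. In untreated cells 10 members were positive at that level and 1 negative (background 3.41% positive and 7.18% negative), and with nocodazole 3 and 3 (background 1.86% and 3.25%). The change with nocodazole was then -0.03 over the members. Under either reading the arrays gave no member that passed limma's test over 14015 features.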

How the data were processed

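RNA of the HM-1 and R1 lines was co-hybridised on 8 cDNA arrays of 2 colours, 4 per group, after indirect labelling, per the labels' protocols. The authors deposited 1 log2 ratio per probe and array. For the scanner, the background step and the normalization, details were not given in the sources used here. Scale, centring and direction of the ratios stay unknown; dim spots keep noisy ratios, and no spot intensity was used. Of 20355 probes, 14030 had 1 gene symbol in GEO's platform annotation, 5 several and 6320 none, and none was named from a probe with several; all 79 members matched RefSeq by gene identifier.

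From these ratios, values with an absolute log2 above 10 were removed, taken here as codes for a missing channel. Each array was centred on its median, and probes of a symbol were averaged. Features measured 3 times or more in both groups were fitted with limma 3.58.1 in R 4.3.3, with 1 mean per group plus a dye term (+0.5 for HM-1 in Cy5). The 5 comparisons were read from this fit, with Benjamini-Hochberg adjustment over all features and a threshold of 0.05. The script was tested on simulated data.

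Members and gene lists were chosen with earlier results of these data known, and the splits by role and by range after the values were seen, so no test over a list is given. Values on every array are given for the 2 members of smallest p in each complex for the gap by dye label and the member of smallest p for untreated, nocodazole and change, each among members with a value on all 8 arrays, and for all of complex II, Cyc1 and pairs of isoforms. Alternatives were turned Cy3 arrays, no dye term, the opposite dye on nocodazole replicate 3, the replicate number as a block, array weights (statmod 1.5.0), extreme values kept, whole-number ratios left out, no centring, quantile normalization, other filters, separate probes and leaving out each array. Precision rests on 8 arrays.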

Additional observations from a re-analysis of the deposited data

Results flagged for a closer look

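Of the 60 groups of 4 arrays examined, over the members given on every array and the medians by complex, 5 held an array far from the other 3. The cutoff flags about 1 in 20 of independent, unselected groups. Many of these genes were picked by a small p and the medians share genes, so that rate does not apply here. On nocodazole replicate 4, the only treated array with HM-1 in Cy3, the complex I median was -0.067 against 0.096 to 0.123 on the other treated arrays. On the same array Atp5md, the ATP synthase dimer protein, was at -0.143 against 0.201 to 0.224, and Cox6c, a complex IV subunit, at -0.309 against -0.033 to 0.018. Cox7a1, the heart and muscle isoform of complex IV, stood apart in both groups, at 0.20 on untreated replicate 1 against -0.151 to -0.11, and at 1.83 on nocodazole replicate 2 against -0.139 to 0.159. The last value is the mean of 3.52 on one probe and 0.14 on the other.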

How the results depend on the processing

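With the Cy3 arrays turned in sign, the medians over the members were 0.13 untreated, 0.11 with nocodazole, 0.12 over both conditions, -0.027 for the change and -0.10 for the gap by dye label, and 0 members separated. In untreated cells Ndufc2 (0.31), Sdhc (0.21), Uqcrfs1 (0.28) and Atp5l (0.24) then reversed, and with nocodazole Sdhc (0.19), Cox6c (0.14) and Atp5o (0.011). The change reversed for Ndufc2 (-0.019), Sdhc (-0.020), Uqcrq (-0.49) and Cox8c (-0.037). The gap reversed for Ndufb9 (-0.072), Ndufa5 (-0.094), Sdhc (-0.41), Sdhd (-0.029), Uqcrfs1 (-0.24), Cyc1 (0.053), Cox5b (-0.19), Cox6b1 (-0.34), Atp5md (-0.16) and Atp5l (-0.35). These follow from the construction of the turned arrays. With probes kept separate, Ndufc2 was at 0.093 untreated and -0.033 for the change, and Ndufb10 at -0.029 with nocodazole. The median gap was 0.34 without centring and 0.35 after quantile normalization, where the median of all features was 0.12 and 0.10. With nocodazole replicate 3 given the opposite dye, 3 members separated.

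Deviations of same-numbered replicates of the 2 groups had correlations from -0.05 to 0.13, and those of other pairs from -0.13 to 0.14. Arrays of replicate 3 differ in dye label, so these values cannot say whether the numbers pair the arrays. With the replicate block the median gap was 0.30, a value that rests on the arrays of replicate 3, where alone the dye label differs between the groups. At an unadjusted p under 0.05 in that limma fit, the gap was positive for 3 members and negative for 3. The shares of all features were 3.23% and 11.1%, and the counts without the block were 14 and 0. Features passing the adjusted threshold were 0 in each comparison except 1 for nocodazole with a value on all 8 arrays, 1 for the gap with separate probes, 1 with array weights, and, without untreated replicate 1, 2 for the gap and 1 for the change. Leaving out each array in turn gave medians over the members of 0.20 to 0.27 for the gap, -0.11 to -0.08 untreated, -0.05 to 0.01 with nocodazole, -0.07 to -0.04 over both conditions and 0.05 to 0.13 for the change, and 21 to 27 separated members, against 8.58% to 13.7% of all features in the same subsets of arrays. The causes were not tested. The 8 arrays limit what could be called: ratios with no intensities give no signal over background, so dim spots could not be set aside by their signal.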
